A study of Bos taurus with 18 samples.

Results

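CD52, PATE1, PATE2, ELSPBP1 and SPAM1 encode proteins known from the surface of mammalian sperm, and their transcripts were followed along the bovine epididymis. The genes were chosen by symbol, and each was measured by the probe set that the array annotation ties to that symbol alone. All 5 genes had such a probe set, 1 each, among 18457 single-gene probe sets for 18010 genes and 26773 probe sets in all, so no second probe set was there to set beside any of them.

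The tissue came from 6 Holstein bulls, 3 of medium-low and 3 of high fertility, aged 51 to 71 months. Fertility was scored from cows that did not return to service 56 days after a first insemination, over 282 to 486 inseminations a bull, and the bulls had gone to slaughter on the milk yield of their daughters. Each epididymis was cut into caput, corpus and cauda, the head, body and tail of the duct, and RNA of whole tissue pieces was hybridised to 18 Affymetrix arrays. The 6 groups of 3 arrays are medium-low and high fertility caput, medium-low and high fertility corpus, and medium-low and high fertility cauda. No animal was treated or carried a mutation according to the labels, and they do not say which bull a replicate number stands for.

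Sperm leave the testis unable to fertilise and mature while they travel through the epididymis. The duct's epithelium secretes proteins that bind to sperm, and some arrive with a glycosylphosphatidylinositol (GPI) anchor, a lipid tail that inserts into the membrane. CD52 is a short, heavily glycosylated GPI-anchored peptide made by the duct and passed to sperm, and it is also a surface antigen of lymphocytes. PATE1 and PATE2 belong to the LY6/PLAUR family of small three-finger proteins, whose disulphide bonds hold 3 loops. ELSPBP1 is a secreted sperm-binding protein built of fibronectin type II domains, and in bull semen it has been described on dead sperm. SPAM1, or PH-20, is the GPI-anchored hyaluronidase that helps sperm through the matrix around the egg; it is made in spermatids, and in the mouse the epididymis makes it too.

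Values are the authors' normalised signals on the log2 scale, where 1 unit is a 2-fold difference. They ran from 2.56 to 14.5, with array medians of 7.26 to 7.39, and the number of arrays limits the precision. No detection call was used, so a low signal cannot be told from background. Probe sets differ in brightness for reasons other than RNA, and RNA levels are therefore compared within a gene only. Where a signal is set against all probe sets, this describes brightness on the array and not RNA amount. Of 10 listed epithelial markers of the labelled tissue 9 were measured. Their mean signals ran from 7.14 to 12.75 with a median of 10.52, against a median of 7.33 over all probe sets. Replicate arrays correlated at 0.986 to 0.990 in the 3 high fertility groups, across all probe sets. In medium-low fertility caput the pairs correlated at 0.951 to 0.980, the widest spread of any group, and replicate 3 stood apart from replicates 1 and 2 for several genes described here. For the results that rest most on those arrays, values without them follow.

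Over all 6 arrays of a segment, CD52 and PATE1 were lowest in the caput, ELSPBP1 was lowest in the cauda, and PATE2 was lower in the cauda than in the caput. No segment difference of SPAM1 passed the test. Differences were tested with limma in 1 model of 6 group means, with p-values adjusted by Benjamini-Hochberg over all 26773 probe sets and a threshold of 0.05. Between corpus and caput 2 of the 5 genes passed, both higher in the corpus, against 33.2% of all probe sets (19.5% higher and 13.7% lower). Between cauda and caput 4 passed, 2 in each direction, against 32.2% (17.2% higher and 15.1% lower). Between cauda and corpus 2 passed, 1 in each direction, against 24.3% (12.1% higher and 12.3% lower). Within medium-low fertility bulls 2, 3 and 2 genes passed in these comparisons, against 17.7%, 20.5% and 10.1% of probe sets, and within high fertility bulls 2, 4 and 2 passed, against 19.6%, 22.7% and 14.5%. In whole tissue, fewer cells of a type and less RNA per cell cannot be told apart.

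**Figure D1:**
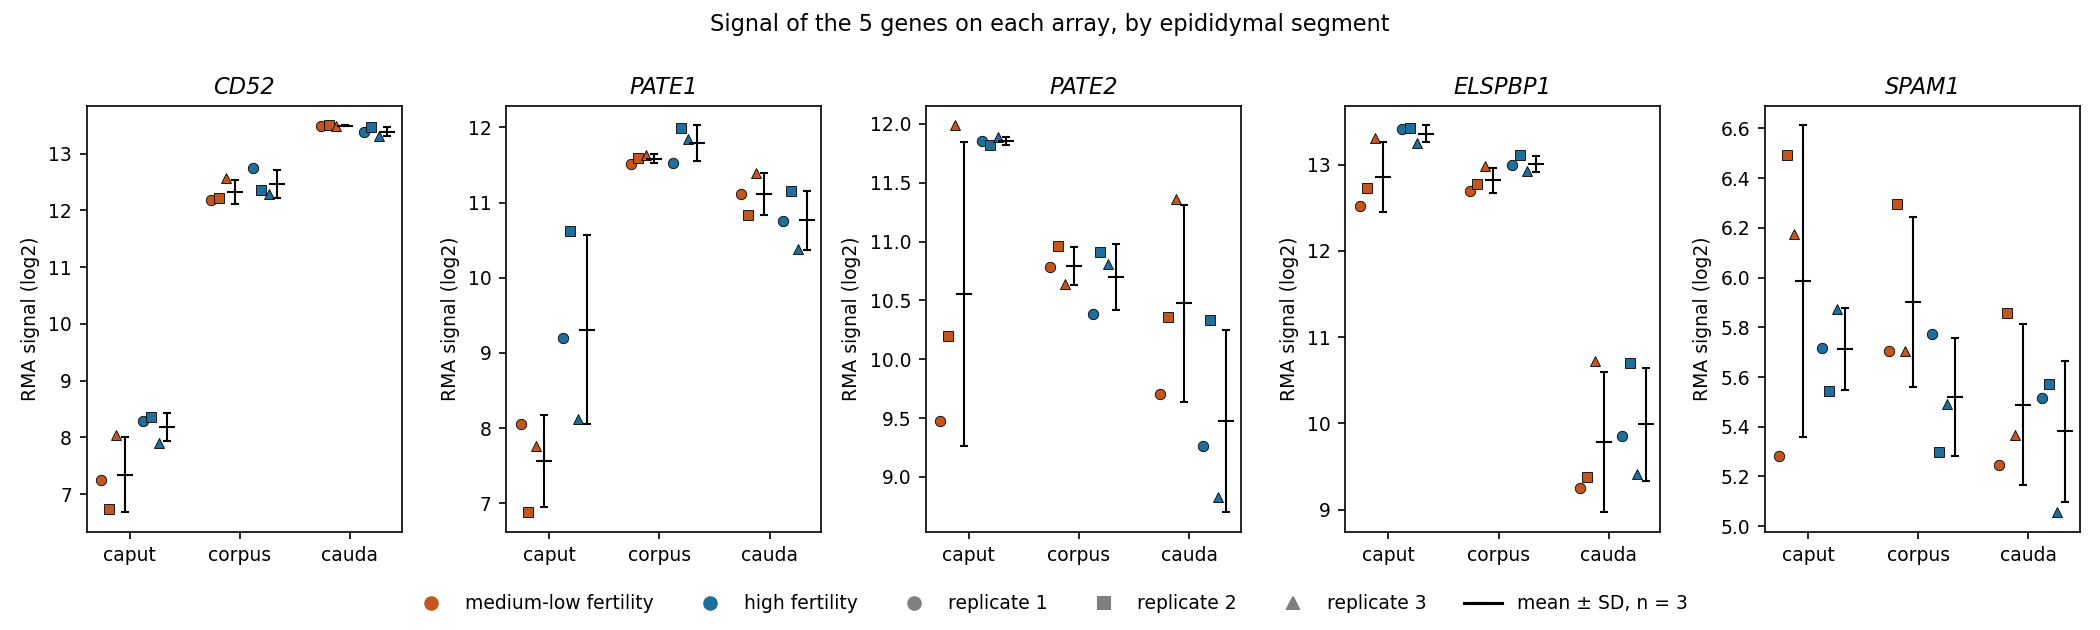
Log2 signal of each gene on every array (symbols mark replicate numbers), by segment, with medium-low fertility left of high fertility and the group mean ± SD (n = 3) beside the points. The caput arrays of CD52 reach at most 8.35 and its corpus and cauda arrays start at 12.17, while the cauda arrays of ELSPBP1 reach at most 10.72.

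CD52 had log2 signals of 7.24, 6.73 and 8.04 in medium-low fertility caput, against 8.29, 8.35 and 7.90 in high fertility caput. In the corpus it had 12.17, 12.22 and 12.57 in medium-low fertility bulls, against 12.74, 12.35 and 12.28 in high fertility bulls. In the cauda it had 13.48, 13.50 and 13.49 in medium-low fertility bulls, against 13.38, 13.47 and 13.31 in high fertility bulls. Every corpus array lay above every caput array, and every cauda array above every corpus array. Medium-low and high fertility arrays overlapped in caput and in corpus. The segment means climbed in that order, with 7.76 ± 0.64 in caput, 12.39 ± 0.22 in corpus and 13.44 ± 0.08 in cauda (SD, n = 6 each). CD52 was 24.8-fold higher in corpus than in caput (log2 difference 4.63, SE 0.17, limma adjusted p = 1.03e-10), and 51.2-fold higher in cauda than in caput. The step between cauda and corpus was smaller, 2.07-fold (log2 difference 1.05, SE 0.17, limma adjusted p = 0.000353). Among all probe sets its difference ranked 11th highest for corpus over caput and 4th highest for cauda over caput.

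The rise of CD52 was present in both fertility groups. In cauda over caput it was 71.0-fold in medium-low and 36.9-fold in high fertility bulls. Its SD between replicate arrays was 0.0069 in medium-low fertility cauda, against 0.66 in medium-low fertility caput (n = 3 each).

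Lymphocytes are the other known source of CD52. Of 25 measured of 26 lymphocyte genes, 3 rose and 1 fell in corpus over caput, 0 rose and 3 fell in cauda over caput, and 0 rose and 1 fell in cauda over corpus. That is 16%, 12% and 4% of them called, against 33.2%, 32.2% and 24.3% of all probe sets. Their mean log2 signal per array was 6.57 to 6.90 in medium-low and 6.59 to 6.80 in high fertility cauda, against 6.51 to 6.93 in medium-low and 6.84 to 7.07 in high fertility caput. CD247, a T cell receptor chain, fell by 0.69 in cauda against caput (log2), and CD5, CD79A and CD79B rose in corpus over caput by 0.27, 0.19 and 0.27. Of 12 measured of 12 mononuclear phagocyte markers, 2 rose and 1 fell in corpus over caput and likewise in cauda over caput, and 3 rose and 1 fell in cauda over corpus. Of these markers 25%, 25% and 33.3% were called, against the same shares of all probe sets. Across the 18 arrays the Pearson r of CD52 with the lymphocyte mean was −0.14, a description over arrays that share bulls and segments. With the mean of the 9 epithelial markers it was 0.75 for CD52 and 0.90 for PATE1. In corpus over caput 4 of those markers rose and 2 fell, 66.7% of them called against 33.2% of all probe sets. The 4 widest differences were rises, of 1.70 for CLDN4, 1.35 for KRT19, 1.02 for ELF3 and 0.68 for CLDN7. In cauda over corpus 1 rose and 2 fell, 33.3% called against 24.3%. There ELF3 rose by 0.52, while CLDN4 fell by 1.98 and CLDN7 by 0.61. The part of the epithelial share of the tissue in the rises of CD52 and PATE1 was not tested.

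The genes whose log2 signal followed CD52 most closely over the 18 arrays were COX8A (r = 0.983), a subunit of cytochrome c oxidase, SMARCA1 (0.983), ATP8B1 (0.982), DEGS1 (0.976) and MAGED4B (0.976). SLC34A2 (r = −0.989), a phosphate transporter, GATM (−0.989) and RCN1 (−0.986) ran most opposite. These values describe likeness along 3 segments and rest largely on the segment difference. Of the protein-coding genes beside CD52 on chromosome 2 in the RefSeq annotation (assembly ARS-UCD2.0), UBXN11 and ZNF683 did not pass the test between segments. CRYBG2 rose by 1.42 in cauda over caput (log2, limma adjusted p = 1.22e-07), with no call between corpus and caput. SH3BGRL3 passed in all 3 comparisons: it fell by 0.27 in corpus against caput, rose by 0.58 in cauda over caput and rose by 0.85 in cauda over corpus.

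**Figure D2:**
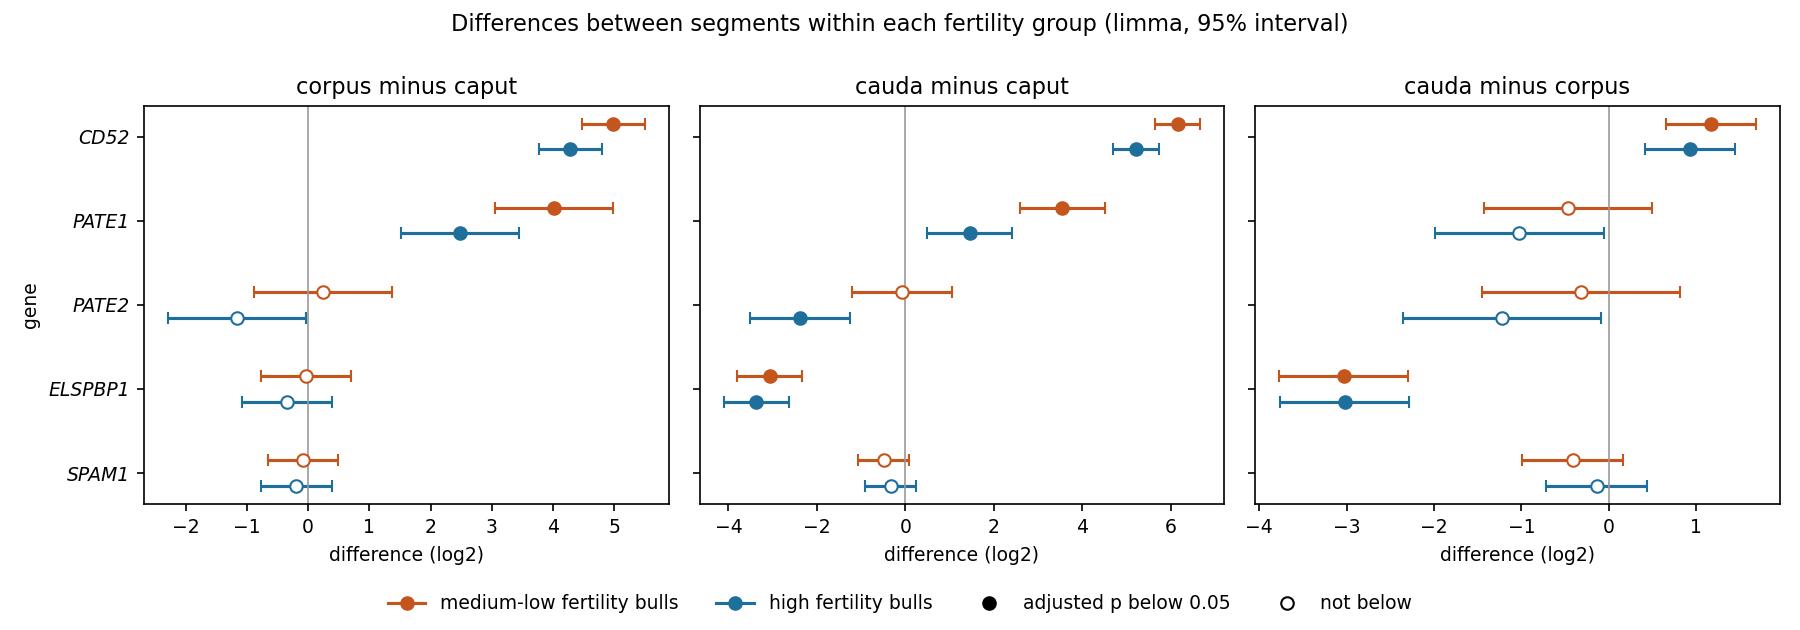
Log2 differences between segments with 95% intervals from limma, medium-low fertility bulls above high fertility bulls, filled where the adjusted p is below 0.05. CD52 lies right of 0 in all 3 panels and ELSPBP1 left of 0 in both cauda panels, while PATE2 in cauda minus caput is −0.08 in medium-low and −2.38 in high fertility bulls. The −0.08 averages over unlike medium-low fertility caput arrays (9.48, 10.20 and 11.99). The limma test of that difference between fertility groups did not pass (adjusted p = 0.323).

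PATE1 had log2 signals of 8.06, 6.88 and 7.76 in medium-low fertility caput, against 9.19, 10.62 and 8.12 in high fertility caput. In the corpus it had 11.52, 11.59 and 11.64 in medium-low fertility bulls, against 11.53, 11.99 and 11.84 in high fertility bulls. In the cauda it had 11.11, 10.83 and 11.39 in medium-low fertility bulls, against 10.76, 11.15 and 10.38 in high fertility bulls. The corpus arrays were the 6 highest, and all lay above the cauda arrays. High fertility caput replicate 2 reached the range of the cauda, and medium-low fertility caput was the lowest group with no overlap with the next. PATE1 was 9.48-fold higher in corpus than in caput (log2 difference 3.24, SE 0.32, limma adjusted p = 2.70e-06), and 5.65-fold higher in cauda than in caput (2.50, adjusted p = 2.38e-05). Cauda minus corpus was −0.75 with a limma adjusted p of 0.105, although these arrays did not overlap. It passed when only the arrays of those segments entered the fit (adjusted p = 0.00244), and also without high fertility caput replicate 2 (0.0232) or replicate 3 (0.0380).

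PATE2 followed another course. It had log2 signals of 9.48, 10.20 and 11.99 in medium-low fertility caput, against 11.86, 11.82 and 11.89 in high fertility caput. In the corpus it had 10.79, 10.96 and 10.64 in medium-low fertility bulls, against 10.38, 10.91 and 10.81 in high fertility bulls. In the cauda it had 9.70, 10.36 and 11.36 in medium-low fertility bulls, against 9.26, 10.34 and 8.83 in high fertility bulls. The corpus arrays lay close together, while the caput and cauda arrays overlapped through the medium-low fertility bulls. Replicate 3 of medium-low fertility was the highest of its group in both caput and cauda.

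Over both fertility groups PATE2 was 2.35-fold lower in cauda than in caput (log2 difference −1.23, SE 0.37, limma adjusted p = 0.0194). This call was lost without high fertility cauda replicate 3 (−1.07, adjusted p = 0.0531), without medium-low fertility cauda replicate 1 (−1.04, 0.0547), and in a fit of those segments alone (0.0547). Without medium-low fertility caput replicates 1 and 2 the difference was −1.95 (adjusted p = 0.000572), and corpus minus caput then passed too (−1.17, 0.0168). Cauda minus corpus was −0.77 (adjusted p = 0.154); it passed without those arrays (0.0496), without medium-low fertility caput replicate 3 (0.0494) and with array weights (−0.87, 0.0285). Within fertility groups, cauda minus caput was −0.08 in medium-low fertility bulls (limma adjusted p = 0.941) and −2.38 in high fertility bulls (0.00414). The test of that difference between the fertility groups gave 2.30 (95% interval 0.71 to 3.90), with an adjusted p of 0.323.

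In the RefSeq annotation PATE1 and PATE2 are neighbouring protein-coding genes on chromosome 29. Their signals over the 18 arrays had an r of −0.12, against 0.86 for CD52 and PATE1 and 0.67 for PATE2 and ELSPBP1. PATE1 was most like CIB1 (r = 0.932), MARVELD3 (0.930), RAB5B (0.928), KIF16B (0.926) and EMP2 (0.925), and most opposite UBTD2 (−0.939), IGSF11 (−0.931) and TRIM29 (−0.918). PATE2 was most like TMEM248 (0.943), CRELD2 (0.906), PEMT (0.904), GALNT6 (0.899) and SLC5A6 (0.894), and most opposite ROR2 (−0.920), BTBD11 (−0.907) and DAPK1 (−0.904). SSLP1, named here after its values were seen, lies on the PATE1 side of this pair, past a protein-coding gene with no single-gene probe set. It had 6.75, 6.01 and 10.20 in medium-low fertility caput, against 9.85, 9.97 and 10.27 in high fertility caput (log2 difference −2.37, limma adjusted p = 0.0799). As with PATE2, replicate 3 alone matched the high fertility arrays. Without that array the SSLP1 difference was −3.65 (adjusted p = 3.25e-07), and without replicates 1 and 2 it was 0.17 (1.00). PUS3, on the PATE2 side and likewise past an unmeasured gene, fell by 0.36 in cauda against corpus (0.00604).

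Among 24 measured of 30 other LY6/PLAUR genes, 9 rose and 2 fell in corpus over caput, with a median difference of 0.23 against 0.06 over all probe sets (log2). In cauda over caput 5 rose and 3 fell, with a median of 0.11 against 0.03. In cauda over corpus 2 rose and 5 fell, with a median of −0.11 against −0.04. The called shares were 45.8%, 33.3% and 29.2%, against 33.2%, 32.2% and 24.3% of all probe sets, and the last 2 are near that background. Over all probe sets 58.7% of calls in corpus over caput were upward, and 41.1% after subtracting array medians. LY6E, a surface protein induced by interferon, fell by 1.72 in corpus against caput and fell by 1.05 in cauda against caput. LYPD6B rose by 0.97 in corpus over caput, and CD59, the inhibitor of the complement attack complex that sperm carry, rose by 0.72 in cauda over caput. LY6G5B and LYPD1 were called lower in the cauda than in the caput, but their caput groups mixed unlike arrays. LY6G5B had 13.67, 13.66 and 7.94 in medium-low fertility caput, against 8.08 to 8.37 in high fertility caput. LYPD1 had 8.47, 9.05 and 6.12 in medium-low fertility caput, against 5.83 to 5.95 in high fertility caput. In both genes replicates 1 and 2 were the bright arrays. Without them, cauda minus caput was −0.18 for LY6G5B (limma adjusted p = 0.547) and −0.10 for LYPD1 (0.299). Without replicate 3 it was −3.04 (1.12e-08) and −1.42 (2.24e-08). PATE3, PATE4, LY6K, LY6G5C, LY6G6D and PSCA had no single-gene probe set here.

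**Figure D3:**
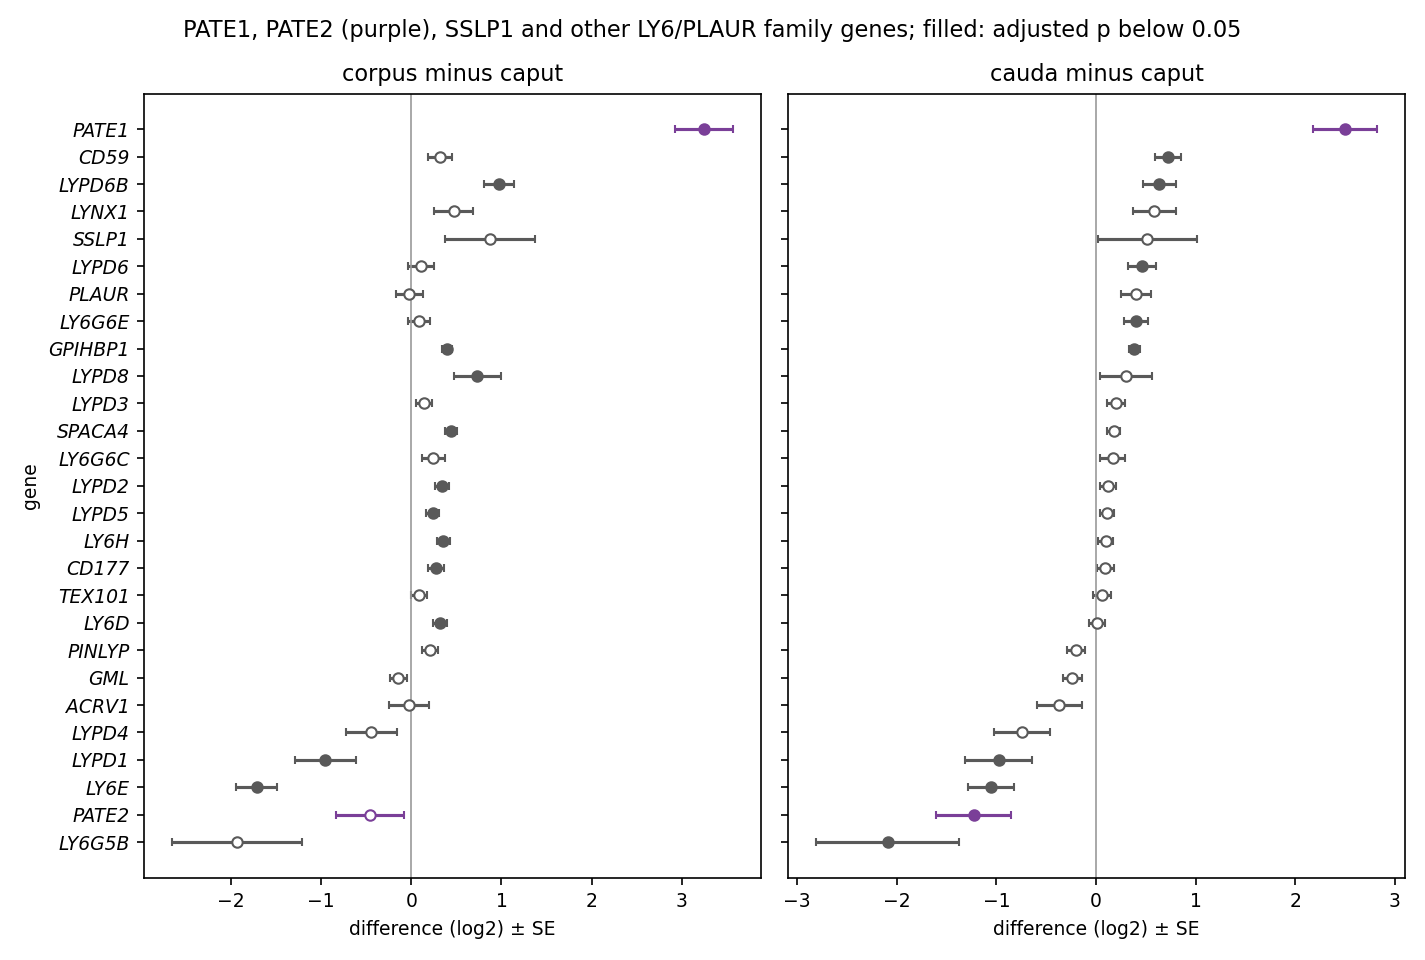
Log2 differences ± SE between segments for PATE1, PATE2, SSLP1 and the 24 other LY6/PLAUR genes, ordered by cauda minus caput and filled where the limma adjusted p is below 0.05. PATE1 is furthest to the right in both panels, at 3.24 and 2.50.

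ELSPBP1 had log2 signals of 12.52, 12.73 and 13.30 in medium-low fertility caput, against 13.41, 13.42 and 13.25 in high fertility caput. In the corpus it had 12.69, 12.78 and 12.98 in medium-low fertility bulls, against 12.99, 13.11 and 12.93 in high fertility bulls. In the cauda it had 9.25, 9.38 and 10.72 in medium-low fertility bulls, against 9.85, 10.70 and 9.41 in high fertility bulls. Caput and corpus overlapped near the top of the array's range, and every cauda array lay below all of them. Its cauda signal was 9.32-fold lower than in caput (log2 difference −3.22, SE 0.24, limma adjusted p = 1.46e-07) and 8.16-fold lower than in corpus (−3.03, SE 0.24, 5.15e-07). Corpus minus caput was −0.19 (adjusted p = 0.577). The fall in cauda against caput was 8.39-fold in medium-low and 10.4-fold in high fertility bulls. By size it ranked 58th lowest of all probe sets in cauda minus caput and 43rd lowest in cauda minus corpus.

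Smooth muscle genes moved with this fall. All 9 measured of 10 listed muscle genes rose in cauda over caput (median log2 difference 1.49) and over corpus (1.33), and 0 passed between corpus and caput. Of all probe sets 32.2%, 24.3% and 33.2% were called in these comparisons. Their mean log2 signal was 12.17, 12.14 and 11.24 in medium-low fertility cauda, against 11.97, 11.78 and 12.23 in high fertility cauda, while caput and corpus arrays lay between 10.13 and 10.84. The cauda arrays with the brightest ELSPBP1, medium-low replicate 3 and high replicate 2, had the lowest muscle means of their groups. Across the 18 arrays the r of ELSPBP1 with the muscle mean was −0.97, of PATE2 −0.65, of PATE1 0.23 and of CD52 0.63. These values rest largely on the difference between segments, since the muscle genes were high and ELSPBP1 was low in the cauda. Of the 9 epithelial markers 2 rose and 2 fell in cauda over caput, 44.4% called against 32.2% of all probe sets. The part of tissue composition in the fall of ELSPBP1 was not tested.

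ELSPBP1 was most like SARAF (r = 0.974), GFPT1 (0.972), TXNL4A (0.967), PLEKHG1 (0.966) and REPS1 (0.965) over the 18 arrays. MACF1 (−0.984), GNAI1 (−0.983) and ADRA2A (−0.983), an adrenergic receptor, ran most opposite. Beside it on chromosome 18, CABP5 fell by 0.42 in cauda against caput (log2, limma adjusted p = 0.0374), and LIG1 did not pass.

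SPADH1, a spermadhesin, and FN1, the matrix protein fibronectin, had the widest called differences among the other fibronectin type II and seminal plasma genes. Of 15 measured of 17, 0 rose and 2 fell in corpus over caput, 2 rose and 2 fell in cauda over caput, and 2 rose and 1 fell in cauda over corpus. The called shares were 13.3%, 26.7% and 20.0%, against 33.2%, 32.2% and 24.3% of all probe sets. SPADH1 fell by 2.09 in corpus against caput and fell by 2.72 in cauda against caput. FN1 rose by 2.23 in cauda over caput and by 1.62 over corpus. FN1 holds fibronectin type II domains. It rose in the cauda as the muscle genes did, and a link between these rises was not tested.

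Within groups, PATE2 and ELSPBP1 deviated together on the arrays furthest from their group means. Their deviations from the group means had an r of 0.83 over the 18 arrays, while the other pairs among the 5 genes ranged from −0.42 to 0.46. Both were high in medium-low fertility caput replicate 3, medium-low fertility cauda replicate 3 and high fertility cauda replicate 2. Both were low in replicate 1 of medium-low fertility caput and cauda and in replicate 3 of high fertility cauda. In medium-low fertility corpus, where deviations were small, replicate 3 was 0.16 for ELSPBP1 and −0.16 for PATE2, and replicate 2 was −0.04 and 0.17. The deviations of 3 arrays sum to 0 in each group, so these points are not independent.

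**Figure D4:**
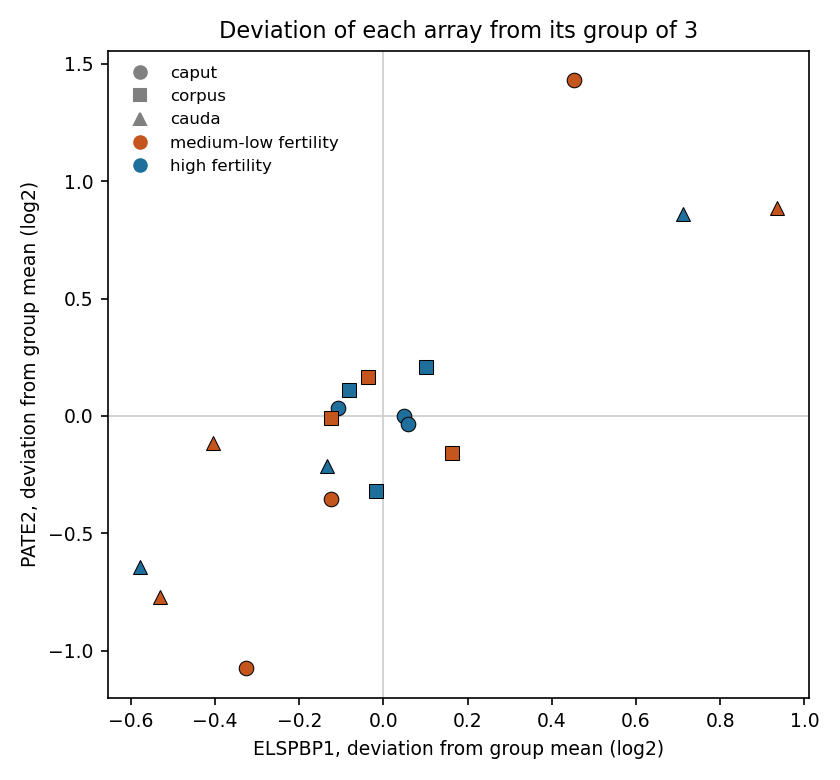
Deviation of each array from its group mean (log2) for PATE2 against ELSPBP1, with shapes for segments and colours for fertility. The arrays furthest from their group means deviate the same way in both genes, with an r of 0.83 over 18 arrays that share bulls and group means. Arrays nearer their group means include opposite signs, as in medium-low fertility corpus replicate 3 (0.16 for ELSPBP1 and −0.16 for PATE2).

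SPAM1 was dim on every array. It had log2 signals of 5.28, 6.49 and 6.17 in medium-low fertility caput, against 5.72, 5.54 and 5.87 in high fertility caput. In the corpus it had 5.71, 6.30 and 5.70 in medium-low fertility bulls, against 5.77, 5.30 and 5.49 in high fertility bulls. In the cauda it had 5.25, 5.86 and 5.37 in medium-low fertility bulls, against 5.52, 5.57 and 5.06 in high fertility bulls. Ordered by mean, each group overlapped with the next, and the mean of 5.66 over all arrays lay under the lower quartile of all probe sets, 5.86. The other 4 genes were brighter than 92.7% to 98.8% of probe sets. Cauda minus caput was −0.41 (SE 0.19, limma adjusted p = 0.117). It passed without medium-low fertility caput replicate 1 (−0.59, adjusted p = 0.00947), with array weights (−0.51, 0.0402), and without caput replicates 1 and 2 of that group (−0.51, 0.0463).

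The 3 arrays with the highest SPAM1, medium-low fertility caput replicates 2 and 3 and corpus replicate 2, were also the 3 with the most sperm transcripts. On these arrays the mean log2 signal of 24 measured of 27 sperm and spermatid genes was 8.06, 7.88 and 7.69, and on the other 15 arrays it was 6.39 to 7.27. Of the sperm genes, 0 rose and 7 fell in corpus over caput, 2 rose and 7 fell in cauda over caput, and 2 rose and 1 fell in cauda over corpus. The called shares were 29.2%, 37.5% and 12.5%, against 33.2%, 32.2% and 24.3% of all probe sets. CRISP2, a sperm tail and acrosome protein, fell by 2.09 in cauda against caput and DKKL1, an acrosomal protein, fell by 1.68. In cauda over corpus ZPBP2, a zona pellucida binding protein, rose by 1.80, and GAPDHS, the sperm glycolytic enzyme, rose by 1.20. The part of sperm RNA in the SPAM1 signal was not tested. Genes most like SPAM1 over the arrays were MGC134040 (r = 0.925), SIRPD (0.923), KCTD19 (0.921), MYOT (0.911) and NT5C1B (0.896), and MIR2354 (−0.841), VPS52 (−0.819) and RASAL3 (−0.808) were most opposite. Each of the genes most like SPAM1 also had arrays under 5.86, the lower quartile of all probe sets. MIR2354 ran from 3.56 to 4.10, while VPS52 (9.68 to 9.98) and RASAL3 (6.72 to 7.23) lay above that quartile. The measured neighbours of SPAM1 on chromosome 4 are WASL and 2 genes with no symbol beyond a LOC number, and none of the 3 passed between segments.

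**Figure D5:**
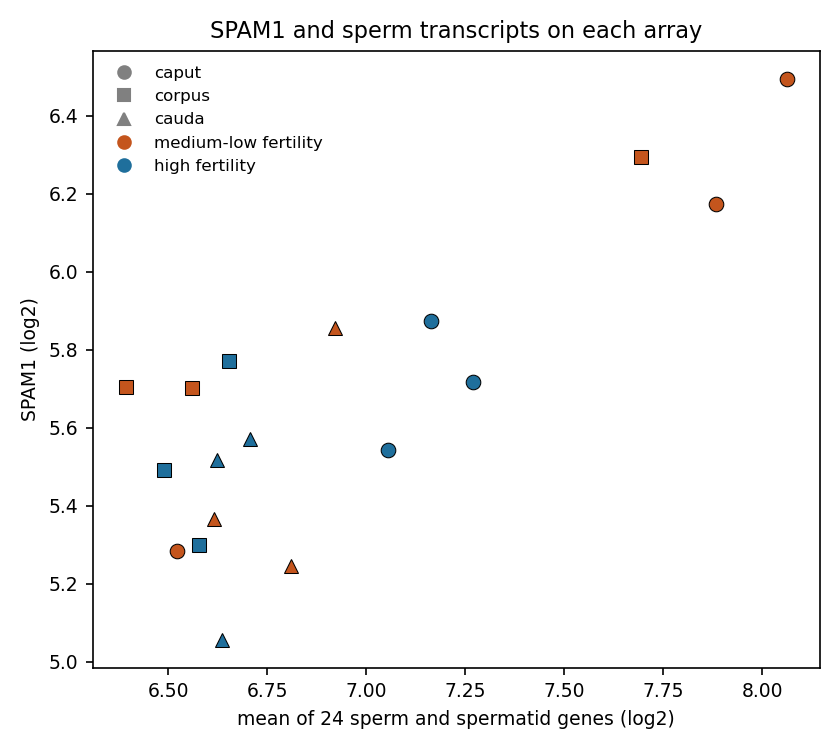
SPAM1 (log2) on each array against the mean log2 signal of 24 sperm and spermatid genes, with shapes for segments and colours for fertility. The 3 arrays furthest right, at 7.69, 7.88 and 8.06 and all of medium-low fertility, are also the 3 highest for SPAM1.

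Hyaluronan is the polymer SPAM1 cuts. Of 11 measured of 15 other genes that make, bind or degrade it, 2 rose and 2 fell in corpus over caput. In cauda over caput 6 rose and 1 fell (median 0.33 against 0.03 over all probe sets), and in cauda over corpus 7 rose and 1 fell (median 0.30 against −0.04). The called shares were 36.4%, 63.6% and 72.7%, against 33.2%, 32.2% and 24.3% of all probe sets, with no test of the list. LYVE1, a hyaluronan receptor of lymph vessels, rose by 1.59 in cauda over caput. CEMIP, a hyaluronan-degrading protein, rose by 0.87, and the synthase HAS3 rose by 0.83. HYAL1, a lysosomal hyaluronidase, fell by 0.33 in corpus against caput and rose by 0.55 in cauda over corpus. HYAL2, itself GPI-anchored, fell by 0.47 in corpus against caput.

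CD52 and SPAM1 carry a GPI anchor. Of 28 measured of 33 genes that build, attach or remodel it, 4 rose and 6 fell in corpus over caput, 2 rose and 11 fell in cauda over caput, and 6 rose and 6 fell in cauda over corpus. The called shares were 35.7%, 46.4% and 42.9%, against 33.2%, 32.2% and 24.3% of all probe sets. The median in cauda over caput was −0.08 against 0.03 over all probe sets. In that comparison 7.1% of the list was called higher and 39.3% lower, against 17.2% and 15.1% of all probe sets, with no test of the list. PIGB, the third mannosyltransferase of the pathway, fell by 2.17 in cauda against caput (limma adjusted p = 3.44e-07). PIGA, part of the enzyme of the first step, fell by 0.53, and GPLD1, a phospholipase that cuts the anchor, fell by 0.52. PIGK, the catalytic subunit of the transamidase that attaches it, fell by 0.90 in corpus against caput. MPPE1, which trims the anchor, rose by 0.95 in corpus over caput and fell by 1.63 in cauda against corpus.

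Other surface proteins that sperm acquire in the duct split both ways. Of 12 measured of 18, 3 rose and 3 fell in corpus over caput, 4 rose and 3 fell in cauda over caput, and 2 rose and 2 fell in cauda over corpus. The called shares were 50%, 58.3% and 33.3%, against 33.2%, 32.2% and 24.3% of all probe sets. CD9, a tetraspanin, rose by 1.25 in corpus and by 1.42 in cauda over caput. SPINLW1, the array's name for EPPIN, a protease inhibitor on sperm, fell by 5.75 in cauda against caput. CLU, the chaperone clusterin, fell by 1.17, and MFGE8, which in the mouse binds the zona pellucida, fell by 1.20. CD55, a GPI-anchored complement regulator, fell by 1.18 in corpus against caput and rose by 0.97 in cauda over corpus.

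Between fertility groups 0 of the 5 genes passed in caput, where 0.213% of all probe sets did. An unadjusted limma p under 0.05 was reached by 3 of them, and by 5580 of all 26773 probe sets. In corpus (0.00374% of probe sets) and cauda (0.0112%) 0 passed and 0 had an unadjusted p under 0.05, where 1182 and 1555 probe sets did. PATE1 was lower in medium-low than in high fertility caput (log2 difference −1.75, 95% interval −2.71 to −0.78, limma adjusted p = 0.0669). Its arrays did not overlap, by a gap of 0.066, and the share of all probe sets without overlap was not counted. CD52 differed by −0.84 (−1.36 to −0.33, adjusted p = 0.0755) and PATE2 by −1.30 (adjusted p = 0.174), with overlap through replicate 3 of medium-low fertility. ELSPBP1 differed by −0.51 (adjusted p = 0.433) and SPAM1 by 0.27 (0.615).

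These caput differences depended on which medium-low fertility arrays were used. Without replicate 3 CD52 was −1.19 (limma adjusted p = 0.000288), PATE1 −1.84 (0.0224) and PATE2 −2.02 (0.00434), and all 3 passed, but so did 17.6% of all probe sets in that fit. Without replicates 1 and 2 instead, CD52 was −0.14, PATE1 −1.55 and PATE2 0.13, and 0 passed, with 0.0112% of all probe sets. That fit leaves 1 array in the group, whose spread is taken to be like that of the others. Epithelial markers averaged 9.66, 9.45 and 9.78 in medium-low fertility caput, against 9.90, 9.89 and 9.85 in high fertility caput, and their part in the differences was not tested.

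In the cauda PATE2 differed by 1.00 between medium-low and high fertility bulls (limma adjusted p = 0.892), and CD52 by 0.10 (0.992), with a gap of only 0.012 between its arrays. The test of whether the fertility difference varied between segments passed for 0 of the 5 genes, where 0.00374% of probe sets did. It gave adjusted p-values of 0.558 for CD52, 0.548 for PATE1 and PATE2, 0.961 for ELSPBP1 and 0.963 for SPAM1. CD52, PATE1 and PATE2 had an unadjusted p under 0.05 in this test, as did 2354 of all 26773 probe sets. No gene of the 5 pathway lists passed between fertility groups in any segment.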

How the data were processed

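The log2 values analysed are those the authors deposited in the series table. RMA, a method that corrects background, normalises between arrays and summarises probes per probe set, Affymetrix Expression Console and Partek 6.5 are named, without their order, in the submitters' processing notes; detection calls and scanner files were not used here. Labelling began from 200 ng total RNA per sample, per the labels' protocols. All 26773 probe sets were fitted with limma 3.58.1 in R 4.3.3 (6 group means, 18 arrays, no replicate block, empirical Bayes), and p-values were adjusted by Benjamini-Hochberg over all of them, threshold 0.05. The script was tested on simulated data. Of the probe sets, 688 named several genes and 7628 none, and both kinds were left unnamed. A gene is its brightest single-gene probe set by mean over 18 arrays. Segments of a bull were treated as independent samples, so p-values reflect the spread between arrays. The genes, lists and tests were chosen with earlier results of these data known. Of each list, up to 4 called genes with the largest difference per comparison could be named, and for each of the 5 genes the 5 most and 3 least correlated genes. Neighbours came from RefSeq names in assembly ARS-UCD2.0. Sequences were not used here. Alternatives were other scalings, array weights, a trended robust prior, a dim-signal filter, fits of the compared segments alone, a replicate block (statmod 1.5.0) and leaving out arrays.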

Additional observations from a re-analysis of the deposited data

How the results depend on the processing

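Member calls between segments kept their direction under every alternative run, but their number varied. With single arrays left out it was 2 in corpus minus caput, 3 to 5 in cauda minus caput and 2 to 3 in cauda minus corpus. In the same fits 7274 to 8961, 7700 to 8966 and 5584 to 7420 of all 26773 probe sets were called. Between fertility groups in caput 0 of the 5 genes passed, against 3 with array weights (CD52, PATE1 and PATE2). With single arrays left out 0 to 3 passed, 3 without medium-low fertility caput replicate 3 and 1 without high fertility caput replicate 3. An unadjusted limma p under 0.05 with a 2-fold difference was reached by 2 genes, and by 805 of all 26773 probe sets. The test of fertility by segment passed for 0 genes, 2 with array weights and 0 to 2 when single arrays were left out. Array weights gave medium-low fertility caput replicate 3 the lowest weight. Of the 5 genes only PATE2 changed sign between fertility groups in caput, to 0.13 without medium-low caput replicates 1 and 2. Leaving out single arrays moved differences between fertility groups across 0 for CD52 in corpus (−0.26 to 0.0008), PATE2 in corpus (−0.0637 to 0.20), ELSPBP1 in cauda (−0.67 to 0.15) and SPAM1 in cauda (−0.0750 to 0.23), none of them called. The number of probe sets called between fertility groups in caput was 57, from 2 to 4702 when single arrays were left out and 4976 with array weights. The 4702 came without medium-low fertility caput replicate 3. For fertility by segment it was 1, and up to 2359 without medium-low fertility caput replicate 3. The cause of these shifts was not tested.

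The replicate block left 2, 4 and 2 genes called in the 3 segment comparisons and 0 in the fertility comparisons, as without it. In corpus minus caput 10201 of all 26773 probe sets were called with the block, against 8881 without it. Deviations of arrays with the same number correlated at over 0.1 in 17 of 18 pairs (r 0.15 to 0.55), among them 9 of 9 in high fertility, and at 0.07 in the other pair. An array correlated best with its own number in 35 of 36 checks. Pairing was to be taken as given only if every pair was over 0.1, so the numbers are a hint from the data that the design does not state. The filter on dim probe sets left SPAM1 untested, and no second probe set of any of the 5 genes could be tried.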
